A study of Mus musculus with 24 samples.

Results

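TRIM28-deficient mouse CD4 T cells (KO) stimulated for 24 h were compared with the same kind of cells taken without stimulation (0 h), across all genes that the array annotation names. The comparison rests on 6 Affymetrix arrays, 3 of KO 24 h and 3 of KO 0 h, out of 24 arrays in the series, and on 22180 genes, all genes of the series that carry 1 gene name. Bead enrichment and a flow cytometry sort gave naive CD4 T cells, which were used directly or stimulated with anti-CD3 bound to the plate and anti-CD28 in solution, which engage the T cell receptor and its costimulatory receptor. Both KO groups carry the same genotype, labelled Trim28-KO. Cells of wild-type littermates (WT), stimulated for 24 h or unstimulated (0 h), 3 arrays each, were used to test where the KO response differed. The other arrays are of KO and WT cells after 4 h and 72 h of stimulation. KO levels at these times are given as a description only, and all 24 arrays set the spread in the fit. The sources used here give neither the promoter that drove the deletion nor the sort gate, the age of the mice or whether animals were pooled, and they do not tie each array to a separate animal, so p-values reflect only how far these arrays scatter, which can be a technical scatter in part. Levels are log2 array intensities, a change is KO 24 h minus KO 0 h on that scale with SE for its standard error in the limma fit, and a gene rose or fell where the Benjamini-Hochberg adjusted p over all genes was below 0.05. An intensity depends on the probe set as well as on the RNA, so levels of different genes are not compared.

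As background, a naive T cell is a small resting cell held in quiescence by factors such as KLF2 and FOXO1, which also sustain its circulation through lymph nodes. Stimulation through CD3 and CD28 induces immediate early transcription factors, then MYC, growth factor receptors and cytokines, and the cell enlarges, builds ribosomes and mitochondria, takes up nutrients and enters its first division. TRIM28 is a corepressor that zinc finger proteins of the KRAB type bring to DNA, where it recruits the histone methyltransferase SETDB1 and heterochromatin proteins.

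The 6 arrays had medians between 3.65 and 3.73. Arrays within KO 24 h or KO 0 h correlated at 0.987 to 0.992 over all probe sets, and a KO 24 h array with a KO 0 h array at 0.952 to 0.964. Trim28 had log2 levels of 5.66, 5.63 and 5.53 in KO 24 h arrays, against 5.12, 4.93 and 5.44 in KO 0 h arrays, and averaged 9.19 in WT 24 h and 7.78 in WT 0 h arrays. It was lower in KO than in WT at both times, yet its signal rose by 0.45 (SE 0.13, adjusted p = 0.00629) in KO 24 h against KO 0 h arrays. Without KO 0 h array 2 that rise was 0.33 and did not pass, and where its probes lie relative to the deletion is not stated in the sources used. The T cell genes Cd3e (11.67 in KO 24 h, 11.97 in KO 0 h), Cd3g (10.92 and 11.30) and Cd4 (10.61 and 11.0 in the same order) were high in both groups, while Cd8a, which marks CD8 T cells, was at 3.27 in KO 24 h and 3.29 in KO 0 h arrays. Arrays numbered 3 had a Y-linked signal (Eif2s3y 8.34 at 24 h and 8.39 at 0 h) that arrays 1 and 2 lacked (2.29 to 2.75), and arrays 1 and 2 had the Xist signal of female cells, so KO 24 h and KO 0 h hold the same mix of sexes. KO 0 h arrays 1 and 3 carried more B cell and neutrophil RNA signal than KO 0 h array 2, as given with those markers, and each count that leads a paragraph was repeated with array 2 as the sole KO 0 h array. In bulk RNA, fewer cells of a type and less RNA per cell cannot be told apart.

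In KO cells 24 h of stimulation changed 7546 of 22180 genes (34%), of which 3893 rose (17.6%) and 3653 fell (16.5%). These shares of 17.6% and 16.5% are the background for every list count below. Changes of at least 2-fold were found in 1938 genes (8.74%), 1121 higher (5.05%) and 817 lower (3.68%) at 24 h. At least 8-fold changes were found for 84 genes that rose and 25 that fell. The 3 arrays of KO 24 h and the 3 of KO 0 h did not overlap for 9869 genes (44.5%). The median change over all genes was 0.0087, and 5% of genes lay below -0.85 and 5% above 1.01. The plot of change against mean level shows both arms of the response.

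**Figure D1:**
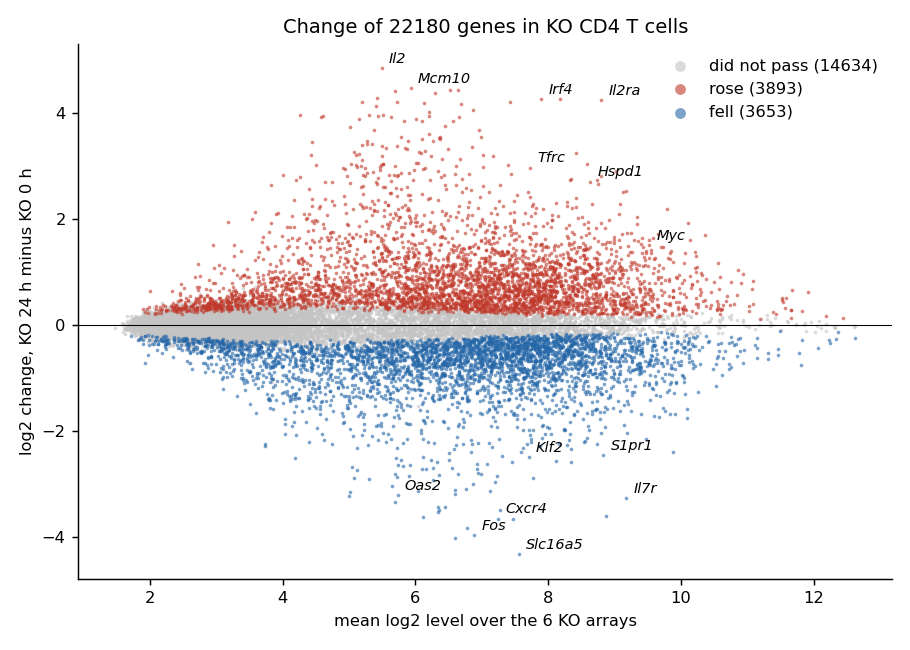
Change of each of 22180 genes in KO cells (vertical axis, log2 level at 24 h minus 0 h) against its mean log2 level over the 6 KO arrays (horizontal axis). Coloured points passed the threshold, 3893 above 0 and 3653 below, and grey points did not; the named genes reach 4.84 at the top and -4.34 at the bottom.

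Il2, the growth factor of activated T cells, had log2 levels of 7.52, 8.05 and 8.16 in KO 24 h arrays, against 3.31, 2.96 and 2.95 in KO 0 h arrays. Its change of 4.84 (SE 0.18, adjusted p = 2.71e-17) was the highest of the named genes. Il2ra, the high-affinity chain of the interleukin 2 receptor, was at 10.95, 10.91 and 10.89 in KO 24 h arrays, against 6.85, 6.80 and 6.41 in KO 0 h arrays, and rose by 4.23 (SE 0.11, adjusted p = 7.55e-20). Irf4, a transcription factor induced in proportion to receptor signal, was at 9.98, 10.03 and 10.07 in KO 24 h arrays, against 5.56, 5.71 and 6.04 in KO 0 h arrays. Its rise was 4.26 (SE 0.11, adjusted p = 7.72e-20). The 15 highest and 15 lowest were picked from the 44.5% of genes whose arrays did not overlap between times. Their separation was thus fixed by the choice. The chemokine gene Xcl1 rose by 4.21 (SE 0.23, adjusted p = 6.02e-14) and the RNA-binding protein gene Ybx3 by 4.26 (SE 0.11, adjusted p = 7.72e-20). The other 10 of the 15 highest belong to replication and division: Mcm10, Uhrf1, Dtl, Aurkb, Cdc6, Ticrr, Hells, Stil, Kif11 and Top2a, with changes between 4.16 and 4.46.

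Slc16a5, a monocarboxylate transporter gene, had log2 levels of 5.55, 5.30 and 5.32 in KO 24 h arrays, against 9.82, 9.65 and 9.70 in KO 0 h arrays. Its change of -4.34 (SE 0.18, adjusted p = 3.5e-16) was the lowest of the named genes. Fos, part of the AP-1 transcription factor, was at 4.96, 4.76 and 4.96 in KO 24 h arrays, against 9.22, 8.89 and 8.5 in KO 0 h arrays, a change of -3.97 (SE 0.20, adjusted p = 5.82e-15). Its partner Jun was at 7.35, 7.0 and 6.85 in KO 24 h arrays, against 10.88, 10.53 and 10.65 in KO 0 h arrays, a change of -3.62 (SE 0.16, adjusted p = 1.12e-15). Fos and Jun were thus high in unstimulated KO cells and low in every KO 24 h array. Cxcr4, a chemokine receptor gene, fell by 3.66 (SE 0.20), the cholesterol exporter gene Abca1 by 3.64 (SE 0.19), the perforin gene Prf1 by 3.50 (SE 0.22) and Sema4a, a semaphorin gene, by 3.49 (SE 0.17). Among the 15 lowest were also Cyp2s1 (-3.66), Il7r (-3.27), Il18r1 (-3.19) and the interferon-induced genes Rtp4 (-3.45), Ifi208 (-3.45), Ddx60 (-3.23) and Oas2 (-3.22). Upk1b, a membrane protein gene of the urothelium, was at 5.11, 3.98 and 5.46 in KO 24 h arrays, against 8.80, 7.25 and 10.03 in KO 0 h arrays, a change of -3.84 (SE 0.44, adjusted p = 4.87e-08), with a spread of 0.77 at KO 24 h and 1.39 at KO 0 h (SD, n = 3 each).

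**Figure D2:**
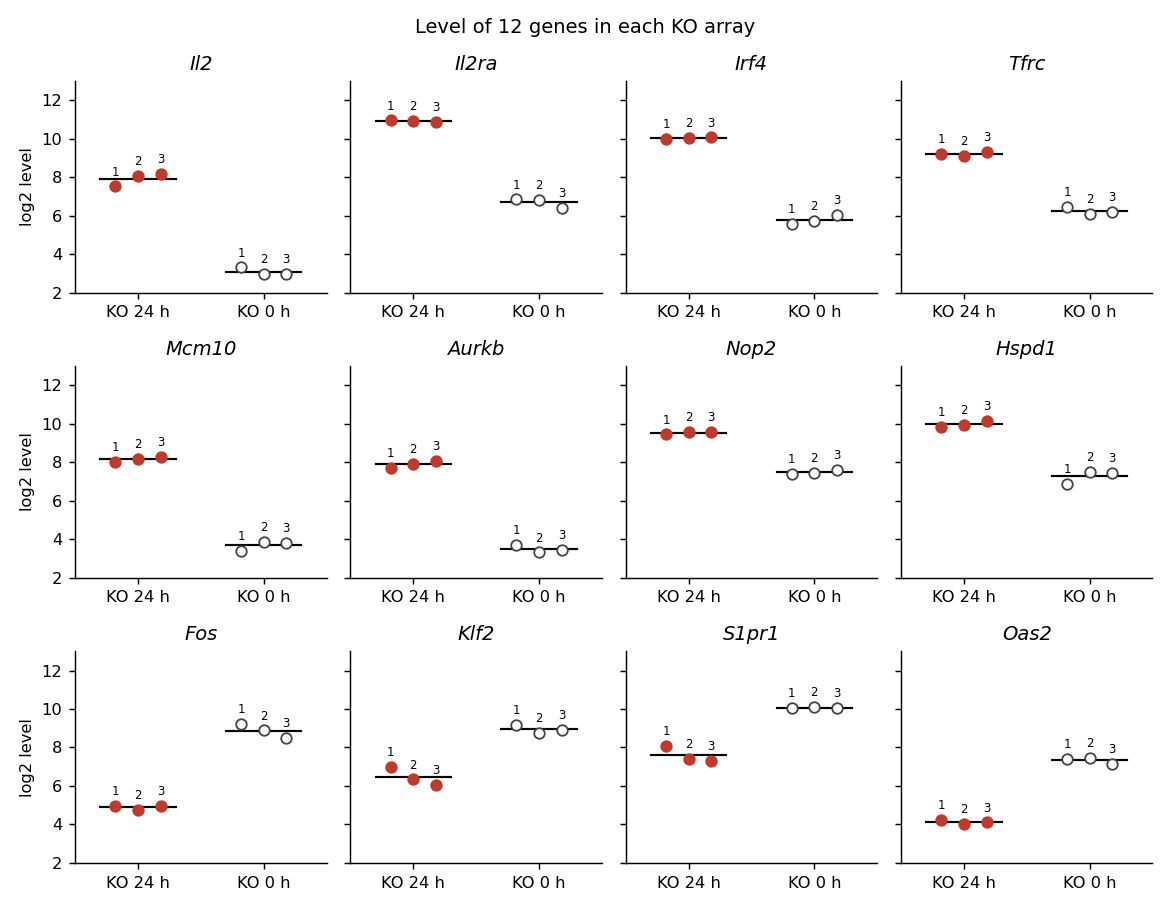
Log2 level (vertical axis) of 12 genes in each KO 24 h array (filled, left) and each KO 0 h array (open, right); bars are means of 3 arrays and numbers name the arrays. For each of the 12 genes the 3 KO 24 h arrays lie wholly above or wholly below the 3 KO 0 h arrays. Il2, for example, is at 7.52 to 8.16 against 2.95 to 3.31. The 12 genes were picked for large changes, some of them from genes whose arrays did not overlap. Their separation was thus fixed at least in part by the choice, and arrays did not overlap for 44.5% of all genes.

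Cytokine and chemokine genes rose in part. Of 36 measured, 12 rose, 5 fell and 19 did not pass, with a median change of 0.16 against 0.0087 over all genes, and 1 fell with array 2 as the sole KO 0 h array. Besides Il2 and Xcl1, Ccl3, a chemokine that attracts macrophages and T cells, was at 7.70, 8.38 and 7.96 in KO 24 h arrays, against 3.91, 4.15 and 4.47 in KO 0 h arrays, and rose by 3.83 (SE 0.16, adjusted p = 3.2e-16). Tnf, an inflammatory cytokine gene, was at 10.30, 10.21 and 10.14 in KO 24 h arrays, against 7.86, 8.17 and 7.82 in KO 0 h arrays, a rise of 2.27 (SE 0.10, adjusted p = 3.43e-16), and Lta, its neighbour in the same family, rose by 1.90 (SE 0.18, adjusted p = 1.53e-09). Ccl22, which draws cells with the receptor CCR4, rose by 3.73 (SE 0.46, adjusted p = 1.83e-07), with array 2 (5.33) well below arrays 1 and 3 (7.71 and 7.59) at KO 24 h. Signature cytokines of helper lineages did not pass: Ifng was at 4.10 ± 0.16 in KO 24 h and 4.07 ± 0.15 in KO 0 h arrays (SD, n = 3 each; change 0.03, adjusted p = 0.908), Il4 changed by -0.04 (adjusted p = 0.811) and Il17a by 0.18 (adjusted p = 0.303). Ccl5, a chemokine of effector and memory cells, fell by 0.94 (SE 0.20), or by 0.74 without passing when array 2 was the sole KO 0 h array.

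Receptors and feedback genes of cytokine signalling moved in both directions. In this list 11 of 37 rose, 20 fell and 6 did not pass, with a median of -0.31. Il7r, the receptor for the survival factor interleukin 7, was at 8.30, 7.42 and 6.91 in KO 24 h arrays, against 10.75, 10.76 and 10.94 in KO 0 h arrays, and fell by 3.27 (SE 0.22). Il18r1, part of the interleukin 18 receptor, fell by 3.19 (SE 0.14) and Il6ra, the interleukin 6 receptor, by 2.04. Socs2, an inhibitor that STAT5 induces, rose by 3.01 (SE 0.16, adjusted p = 1.84e-14) and Il12rb1, part of the interleukin 12 and 23 receptors, by 2.94 (SE 0.19, adjusted p = 9.69e-13), while Socs3, which restrains STAT3 signalling, fell by 2.31. Socs1 and Tgfbr1 did not pass (changes -0.06 and -0.11).

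Surface molecules of activation rose in most cases. Of 25 measured activation and costimulatory genes, 15 rose, 3 fell and 7 did not pass, with a median of 0.72. Tfrc, the transferrin receptor for iron uptake, was at 9.21, 9.13 and 9.30 in KO 24 h arrays, against 6.45, 6.10 and 6.21 in KO 0 h arrays, a rise of 2.96 (SE 0.09, adjusted p = 8.23e-19). Tnfsf11, the RANK ligand gene, rose by 3.47 (SE 0.19, adjusted p = 5.85e-14), and the costimulatory receptors Tnfrsf4 (OX40) and Tnfrsf9 (4-1BB) by 2.80 and 2.72. Cd44 and Cd69, long used as activation markers, rose by less, 0.86 and 0.57 (SE 0.12 and 0.06). Cd40lg, the ligand through which T cells help B cells, did not pass (change -0.14).

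Genes of inhibitory receptors rose beside them, 10 of 16, while 3 fell and 3 did not pass. Pdcd1, which encodes PD-1, was at 8.32, 8.66 and 8.59 in KO 24 h arrays, against 5.03, 5.29 and 5.21 in KO 0 h arrays, a rise of 3.34 (SE 0.14, adjusted p = 1.53e-16). Lag3, a receptor for MHC class II, was at 7.68, 7.63 and 7.41 in KO 24 h arrays, against 4.72, 4.32 and 4.5 in KO 0 h arrays, a rise of 3.06 (SE 0.15, adjusted p = 3.21e-15). Cd200 rose by 2.27 (SE 0.12, adjusted p = 3.63e-14), Tigit by 1.84 (SE 0.18, adjusted p = 1.98e-09) and Ctla4 by 1.53 (SE 0.10, adjusted p = 6.87e-13), whereas Cd96 fell by 1.44. All of the risen members named here, which were picked for large changes, had higher levels in each KO 24 h array than in any KO 0 h array. Arrays did not overlap between times for 13 of the 16 genes of the list, against 44.5% of all genes.

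Components of the T cell receptor complex and its proximal signalling were mostly lower at 24 h. Of 28 measured, 19 fell, 5 rose and 4 did not pass, with a median of -0.38, and 3 of the falls were at least 2-fold. Pag1, an adaptor that holds back the kinase LCK, fell by 1.54 (SE 0.11), Themis, a signalling scaffold of T cells, by 1.38 (SE 0.11) and the protein kinase gene Prkcq by 1.10 (SE 0.08). Plcg1, the phospholipase that releases calcium, fell by 0.90, the diacylglycerol kinase gene Dgka by 0.77 and the ubiquitin ligase gene Cbl by 0.76. Cd4, Cd3g and Cd3e fell by 0.39, 0.38 and 0.30, with SE between 0.05 and 0.07. Csk, the kinase that restrains LCK, did not pass (change 0.02).

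Among transcription factors of receptor signalling, 11 of 25 EGR, NR4A, NFAT and AP-1 genes rose, 10 fell and 4 did not pass. Besides Irf4, the orphan receptor genes Nr4a2 and Nr4a3 rose by 2.83 (SE 0.20) and 2.31 (SE 0.10). Nr4a3 averaged 7.13 in KO cells at 0 h, 11.36 at 4 h, 9.44 at 24 h and 10.44 at 72 h. Fosb was at 5.36, 4.61 and 4.89 in KO 24 h arrays, against 8.56, 7.31 and 6.67 in KO 0 h arrays, a change of -2.56 (SE 0.34, adjusted p = 5.09e-07). In the NF-kappa-B list 7 of 17 rose and 8 fell: the subunit genes Nfkb2 and Rel rose by 1.19 and 1.08, and the inhibitor gene Tnfaip3 and the regulator gene Nfkbiz fell by 1.90 and 1.48. With array 2 as the sole KO 0 h array, 4 NF-kappa-B genes rose. Batf and Fosl2 did not pass (changes 0.15 and 0.01).

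Genes of ribosome production were higher throughout. All 40 measured genes of ribosome biogenesis rose (29 at least 2-fold), with a median change of 1.27, and 39 of them with array 2 as the sole KO 0 h array. Myc, which drives many of these genes in other settings, was at 10.17, 10.32 and 10.33 in KO 24 h arrays, against 8.61, 8.83 and 8.89 in KO 0 h arrays, a rise of 1.5 (SE 0.09, adjusted p = 1.53e-13). Nop2, a methyltransferase of ribosomal RNA, was at 9.45, 9.56 and 9.58 in KO 24 h arrays, against 7.42, 7.45 and 7.61 in KO 0 h arrays, a rise of 2.04 (SE 0.08, adjusted p = 1.4e-16). Nop16 rose by 2.01 (SE 0.10), Nhp2, a protein of the pseudouridylation complex, by 1.97 (SE 0.09), and Mybbp1a by 1.73. In the MYC network itself 3 of 13 rose (23.1%) and 6 fell (46.2%), against 17.6% and 16.5% over all genes. Among those that fell were the MYC antagonist genes Mnt (-1.05), Mxd4 (-0.90) and Mxd1 (-0.73). MYC with its partner MAX binds the letters CACGTG, an E-box. These letters were found in 8 of 44 RefSeq promoter windows (18.2%) of 36 matched ribosome biogenesis genes, against 8.1% of the 20520 windows of all genes tested, where a window runs from 250 bases before to 50 bases after a gene's start (build GRCm38.p6) and CACGTG reads the same on both strands. Other lists held CACGTG in 16.1% (serine, one-carbon and nucleotide synthesis), 15.8% (DNA replication) and 9.38% (mitosis) of windows. The shares were 5.13% for naive and quiescence and 0% for interferon-stimulated genes. Of the named genes, the windows of Nop2 and Mybbp1a hold CACGTG and those of Nop16 and Nhp2 do not. The Nop2 window, with the E-box in capitals, is at chr6:125131633-125131932 on the plus strand.
Nop2 promoter: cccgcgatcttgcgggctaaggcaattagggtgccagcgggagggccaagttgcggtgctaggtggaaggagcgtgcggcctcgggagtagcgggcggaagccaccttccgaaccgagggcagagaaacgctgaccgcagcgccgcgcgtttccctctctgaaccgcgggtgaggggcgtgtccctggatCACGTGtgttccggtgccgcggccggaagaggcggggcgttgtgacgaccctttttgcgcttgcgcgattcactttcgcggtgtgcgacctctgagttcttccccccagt
A match of letters is a description of the sequence and shows no binding.

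**Figure D3:**
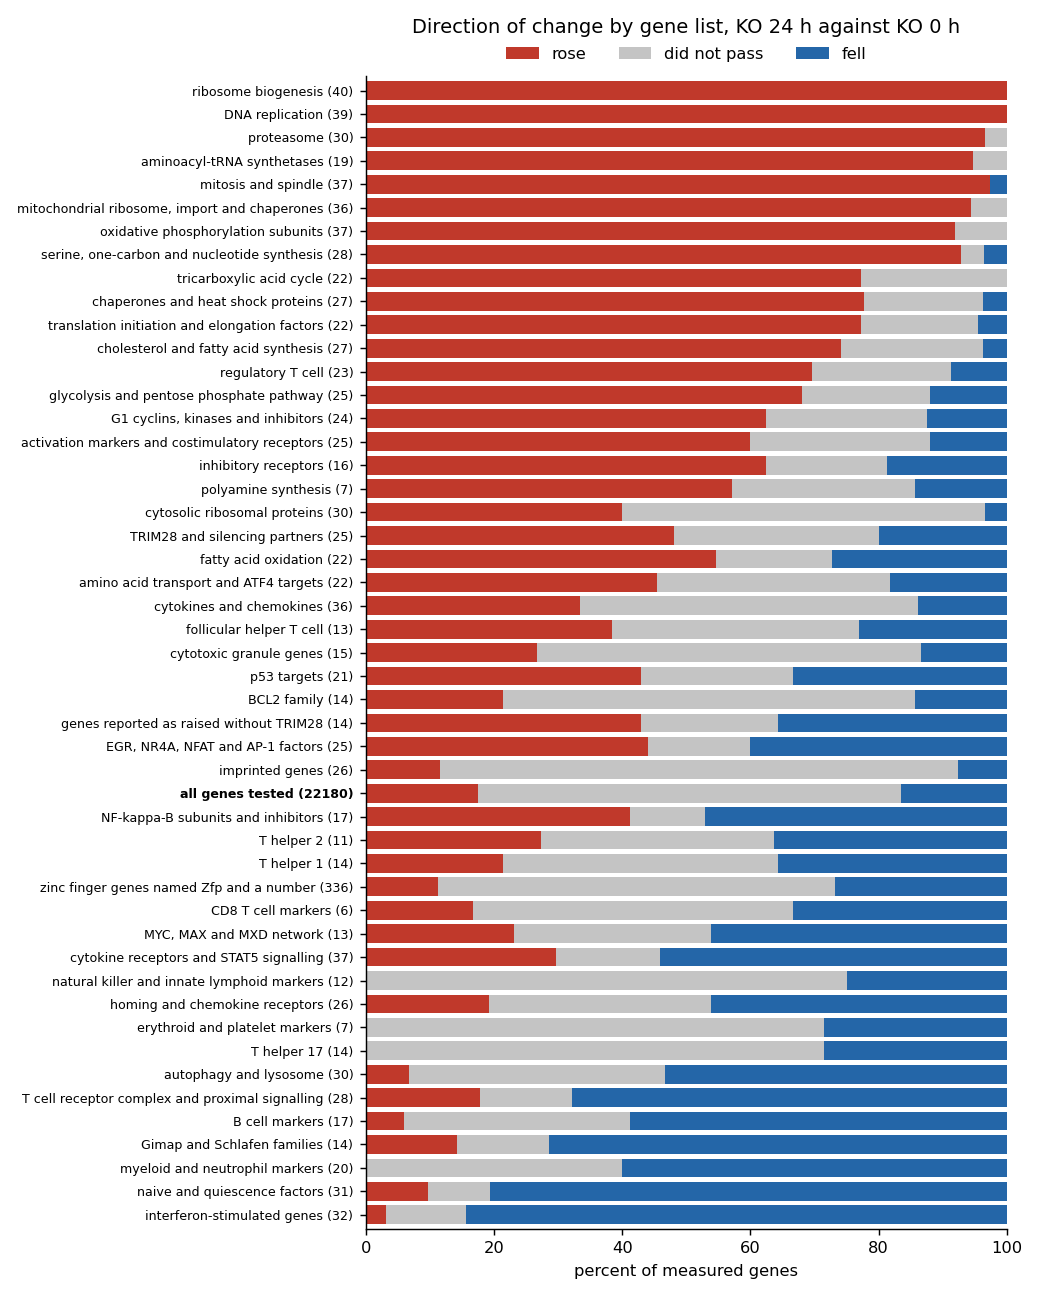
Share of the measured genes of each list (horizontal axis, percent) that rose (red), did not pass (grey) or fell (blue) in KO cells between 0 h and 24 h, with the number measured behind each name. DNA replication and ribosome biogenesis are all red, and naive and quiescence factors and interferon-stimulated genes are mostly blue; the bar for all genes is the background.

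Protein synthesis and folding genes rose with them. Of 19 aminoacyl-tRNA synthetase genes, 18 rose and 0 fell, led by Kars at 1.60 (SE 0.07, adjusted p = 3.43e-16). For translation factors 17 of 22 genes were higher and 1 was lower. Changes were 1.65 for Eef1e1, 1.38 for Eif3b and 1.24 for Eif4ebp1, an inhibitor of cap-dependent translation. In contrast, 17 of 30 cytosolic ribosomal protein genes did not pass, 12 rose and 1 fell, with a median of 0.12, and Rps6 and Rpl4 changed by 0.01 and -0.02. The proteasome had 29 of 30 genes risen and 0 fallen, from a median of 0.98 up to 1.55 for Psmb5. Of 27 chaperone and heat shock genes 21 rose and 1 fell, among them Cct6a, a subunit of the folding complex TRiC, by 1.71 (SE 0.06, adjusted p = 4.76e-18) and Hsph1 by 1.61.

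For nucleotide, serine and one-carbon synthesis 26 of 28 genes rose (21 at least 2-fold) and 1 fell, with a median of 1.75. Rrm2, the regulated subunit of ribonucleotide reductase, was at 8.44, 8.48 and 8.51 in KO 24 h arrays, against 4.62, 4.65 and 4.66 in KO 0 h arrays, a rise of 3.83 (SE 0.17, adjusted p = 1.13e-15). Tk1, thymidine kinase, rose by 3.54 (SE 0.15, adjusted p = 5.14e-16), Tyms, thymidylate synthase, by 3.26 (SE 0.14, adjusted p = 6.42e-16), and Shmt1, a folate enzyme that uses serine, by 3.12 (SE 0.12, adjusted p = 2.63e-17). In the polyamine list 4 of 7 genes rose, 1 fell and 2 did not pass: Srm, spermidine synthase, rose by 2.51 (SE 0.08, adjusted p = 8.23e-19) and Odc1, the first enzyme of the path, by 1.31 (SE 0.12, adjusted p = 8.04e-10). Amino acid transport and ATF4 target genes split, 10 of 22 up and 4 down: Slc43a3 was at 8.0, 8.31 and 8.62 in KO 24 h arrays, against 4.32, 4.84 and 4.55 in KO 0 h arrays, a rise of 3.74, and the large neutral amino acid carrier gene Slc7a5 rose by 1.52, whereas the stress gene Ddit4 fell by 1.61. Of these genes 2 fell with array 2 as the sole KO 0 h array.

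Most energy metabolism genes rose too, the median change being smaller than for nucleotide synthesis. In glycolysis and the pentose phosphate pathway 17 of 25 genes rose and 3 fell. Hk2, a hexokinase of activated cells, was at 6.45, 6.78 and 6.90 in KO 24 h arrays, against 3.72, 3.86 and 3.94 in KO 0 h arrays, a rise of 2.87 (SE 0.12, adjusted p = 3.58e-16), and Tpi1, triosephosphate isomerase, rose by 2.76 (SE 0.10, adjusted p = 4.22e-17). The glucose transporter gene Slc2a1 rose by 0.58 (SE 0.08) and the pyruvate dehydrogenase kinase gene Pdk1 fell by 1.74. Of 37 oxidative phosphorylation subunits 34 rose and 0 fell, with a median of 0.69 and Cycs, cytochrome c, at 1.58 (SE 0.07, adjusted p = 2.57e-16). In the citric acid cycle 17 of 22 genes rose and 0 fell, Fh1, fumarate hydratase, by 1.52. The list of mitochondrial ribosome, import and chaperone genes had 34 of 36 risen and 0 fallen, and its chaperonin gene Hspd1 was at 9.83, 9.96 and 10.14 in KO 24 h arrays, against 6.87, 7.52 and 7.46 in KO 0 h arrays, a rise of 2.69 (SE 0.11, adjusted p = 2.79e-16).

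In both lipid lists more genes rose than fell. In cholesterol and fatty acid synthesis 20 of 27 genes rose and 1 fell, with a median of 0.91. Cyp51, a demethylase of the sterol path, was at 7.84, 7.83 and 7.82 in KO 24 h arrays, against 4.33, 4.80 and 4.82 in KO 0 h arrays, a rise of 3.18 (SE 0.14, adjusted p = 5.22e-16). Sqle, squalene epoxidase, rose by 2.96 (SE 0.13, adjusted p = 4.54e-16) and Acaca, which makes malonyl-CoA for fatty acid synthesis, by 1.77 (SE 0.11, adjusted p = 8.29e-13). In the fatty acid oxidation list 12 of 22 rose and 6 fell: Cpt1a, the carnitine transferase that admits fatty acids to mitochondria, was at 6.71, 6.40 and 6.82 in KO 24 h arrays, against 8.77, 8.78 and 9.01 in KO 0 h arrays, and fell by 2.21 (SE 0.10), while Acadm, the medium-chain dehydrogenase, rose by 1.01 (SE 0.07, adjusted p = 9.14e-12).

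Each measured replication gene was higher at 24 h. All 39 measured DNA replication genes rose, 36 of them at least 2-fold, with a median of 2.26, and 39 rose with array 2 as the sole KO 0 h array. Mcm10, which starts unwinding at origins, was at 8.02, 8.17 and 8.29 in KO 24 h arrays, against 3.42, 3.88 and 3.80 in KO 0 h arrays, a rise of 4.46 (SE 0.14, adjusted p = 1.84e-18). Cdc6, which loads the MCM helicase, was at 8.29, 8.49 and 8.68 in KO 24 h arrays, against 3.93, 4.25 and 4.18 in KO 0 h arrays, a rise of 4.36 (SE 0.14, adjusted p = 9.39e-19). Uhrf1, which couples DNA methylation to replication, was at 8.65, 8.71 and 8.87 in KO 24 h arrays, against 4.35, 4.11 and 4.45 in KO 0 h arrays, a rise of 4.43 (SE 0.12, adjusted p = 1.1e-19). After 4 h these genes were still at 3.64 (Mcm10), 3.74 (Cdc6) and 4.48 (Uhrf1) in KO cells, and after 72 h at 8.20, 8.11 and 8.53. Letters bound by E2F factors, TTTGGCGC or TTCCCGCC on either strand, were found in 10 of 38 promoter windows (26.3%) of 30 matched replication genes, against 3.5% of windows of all genes tested. The window of Uhrf1 with TTCCCGCC in capitals, shown as an example of such a match, is at chr17:56303087-56303386 on the plus strand, while a second Uhrf1 window and those of Mcm10 and Cdc6 hold neither.
Uhrf1 promoter: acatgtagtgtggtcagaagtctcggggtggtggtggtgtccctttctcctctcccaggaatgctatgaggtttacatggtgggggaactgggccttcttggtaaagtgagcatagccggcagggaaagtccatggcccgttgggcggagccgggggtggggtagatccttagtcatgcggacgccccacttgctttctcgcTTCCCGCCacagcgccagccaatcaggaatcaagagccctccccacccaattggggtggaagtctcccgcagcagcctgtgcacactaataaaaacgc

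Mitosis genes followed, with 36 of 37 risen (each at least 2-fold), 1 fallen and a median of 2.46. Aurkb, a kinase of chromosome segregation, was at 7.71, 7.92 and 8.06 in KO 24 h arrays, against 3.72, 3.32 and 3.46 in KO 0 h arrays, a rise of 4.40 (SE 0.14, adjusted p = 2.95e-18). Kif11, the spindle motor, was at 8.18, 8.10 and 8.39 in KO 24 h arrays, against 4.13, 4.01 and 3.98 in KO 0 h arrays, a rise of 4.18 (SE 0.10, adjusted p = 2.68e-20). Cdk1, the mitotic kinase, was at 6.18, 6.85 and 6.70 in KO 24 h arrays, against 2.91, 2.55 and 2.46 in KO 0 h arrays, a rise of 3.93 (SE 0.18, adjusted p = 2.12e-15), and Mki67 rose by 3.54 (SE 0.12, adjusted p = 5.53e-18). Levels in KO cells were higher again after 72 h, 9.20 for Aurkb, 9.83 for Kif11 and 8.05 for Cdk1. The letters CCAAT, bound by the factor NF-Y, or ATTGG on the other strand, were found in 22 of 32 windows (68.8%) of 30 matched mitosis genes and in 24 of 38 (63.2%) of 30 matched DNA replication genes, against 37.7% of windows of all genes tested. Top2a, the topoisomerase that untangles chromosomes, rose by 4.16 and has 6 such matches, and Cdk1 has 3. Kif11 has 1, and the windows of Kif15 and Nuf2, also in the list, hold neither. The windows with the most matches are shown as examples, Top2a at chr11:99024140-99024439 and Cdk1 at chr10:69352863-69353162. Both of these are on the minus strand and written in the direction of transcription, with the matches in capitals.
Top2a promoter: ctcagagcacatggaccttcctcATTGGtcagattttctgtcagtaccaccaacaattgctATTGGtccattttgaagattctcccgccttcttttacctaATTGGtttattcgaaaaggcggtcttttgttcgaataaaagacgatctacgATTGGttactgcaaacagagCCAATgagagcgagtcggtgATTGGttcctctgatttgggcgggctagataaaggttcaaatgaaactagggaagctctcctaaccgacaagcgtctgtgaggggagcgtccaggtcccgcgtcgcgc
Cdk1 promoter: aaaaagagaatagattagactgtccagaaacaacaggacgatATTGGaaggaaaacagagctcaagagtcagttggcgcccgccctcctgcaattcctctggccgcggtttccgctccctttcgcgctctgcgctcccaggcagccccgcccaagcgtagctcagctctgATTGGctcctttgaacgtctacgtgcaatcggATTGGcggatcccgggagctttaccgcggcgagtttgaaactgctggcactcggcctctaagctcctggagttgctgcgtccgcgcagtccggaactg

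The regulators of the first cell cycle step moved in both directions. Of 24 genes of G1 cyclins, kinases and inhibitors 15 rose and 3 fell. E2f8 rose by 3.95 (SE 0.14, adjusted p = 2.37e-17), the cyclin D kinase gene Cdk6 by 2.45 (SE 0.14, adjusted p = 5.67e-14) and E2f1 by 2.44 (SE 0.12, adjusted p = 8.2e-15). Of the inhibitors, Cdkn1a was at 6.70, 6.60 and 6.82 in KO 24 h arrays, against 3.62, 3.59 and 3.32 in KO 0 h arrays, a rise of 3.20 (SE 0.15, adjusted p = 1.25e-15). Cdkn2d was at 5.73, 5.68 and 5.76 in KO 24 h arrays, against 8.01, 7.93 and 7.98 in KO 0 h arrays, a change of -2.25 (SE 0.11, adjusted p = 9.46e-15). The groups did not overlap for either inhibitor gene, as for 44.5% of all genes, and these inhibitor genes moved in opposite directions. Ccnd3 did not pass (change -0.19, adjusted p = 0.107), but it did with quantile normalization run again (change -0.24, adjusted p = 0.0249). In the p53 target list, which shares Cdkn1a, 9 of 21 rose and 7 fell, with Pidd1 at 1.89 and Btg2 at -2.13.

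Naive and quiescence genes were lower after stimulation. Of 31 measured, 25 fell (17 at least 2-fold), 3 rose and 3 did not pass, with a median of -1.16, and 23 fell with array 2 as the sole KO 0 h array. Klf2, the quiescence factor, was at 6.97, 6.34 and 6.06 in KO 24 h arrays, against 9.18, 8.76 and 8.93 in KO 0 h arrays, a change of -2.5 (SE 0.18, adjusted p = 1.45e-11). S1pr1, the receptor that lets T cells leave lymph nodes, was at 8.09, 7.40 and 7.31 in KO 24 h arrays, against 10.06, 10.09 and 10.05 in KO 0 h arrays, a change of -2.47 (SE 0.17, adjusted p = 2.89e-12). Txnip, which restrains glucose uptake, was at 9.04, 8.59 and 8.43 in KO 24 h arrays, against 10.91, 11.08 and 11.27 in KO 0 h arrays, a change of -2.40 (SE 0.13, adjusted p = 4.66e-14). For these 3 genes KO 24 h array 1 had the highest level of the 3 KO 24 h arrays. Pik3ip1, an inhibitor of PI3 kinase, fell by 2.73 and Btg2, an antiproliferative factor, by 2.13, and Foxp1 did not pass (change 0.07). At 72 h Klf2 was at 4.58 and S1pr1 at 5.50 in KO cells.

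**Figure D4:**
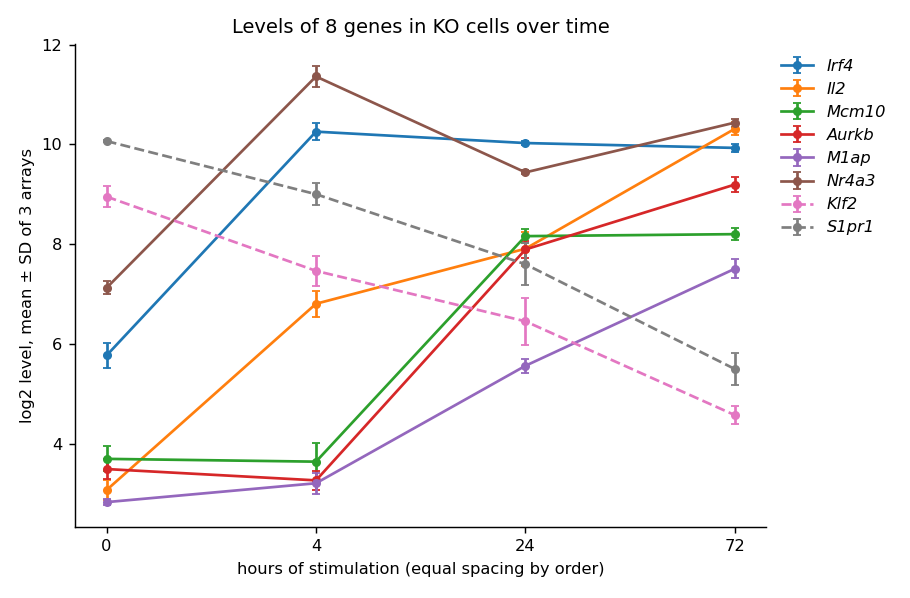
Mean log2 level (vertical axis) of 8 genes in KO cells at 0, 4, 24 and 72 h of stimulation (horizontal axis, equal spacing by order); error bars are the SD of 3 arrays. Mcm10 and Aurkb stay near their 0 h level at 4 h and are high at 24 h, Irf4 is already high at 4 h, and Klf2 and S1pr1 decline at each step.

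Homing and chemokine receptor genes changed in both directions, 5 of 26 up (3 with array 2 as the sole KO 0 h array) and 12 down, shares of 19.2% and 46.2% against 17.6% and 16.5% over all genes. Ccr4 was at 6.79, 7.26 and 7.21 in KO 24 h arrays, against 3.29, 3.0 and 3.36 in KO 0 h arrays, a rise of 3.87 (SE 0.16, adjusted p = 2.09e-16), and Ccr8 rose by 3.04 (SE 0.27, adjusted p = 6.46e-10), averaging 3.52 in KO cells at 0 h, 8.82 at 4 h, 6.55 at 24 h and 8.27 at 72 h. The integrin genes Itgb7 and Itga4, which direct cells to the gut, fell by 1.59 and 1.55. Cxcr4 was at 5.63, 5.21 and 5.42 in KO 24 h arrays, against 8.43, 9.26 and 9.56 in KO 0 h arrays. Cxcr3 and Ccr6 did not pass (changes 0.21 and 0.02).

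Interferon-stimulated genes were mostly lower at 24 h than in unstimulated KO cells. In this list 27 of 32 fell (22 at least 2-fold), 1 rose and 4 did not pass, with a median of -1.46, and 26 fell with array 2 as the sole KO 0 h array. Irf7, the factor that amplifies interferon responses, was at 5.29, 4.98 and 4.85 in KO 24 h arrays, against 7.98, 8.39 and 8.13 in KO 0 h arrays, a change of -3.12 (SE 0.15, adjusted p = 2.97e-15). Oas2, a sensor enzyme for double-stranded RNA, was at 4.24, 4.03 and 4.10 in KO 24 h arrays, against 7.43, 7.46 and 7.13 in KO 0 h arrays, a change of -3.22 (SE 0.17, adjusted p = 2.61e-14). Rtp4 was at 5.08, 4.51 and 4.27 in KO 24 h arrays, against 7.77, 8.38 and 8.05 in KO 0 h arrays, Ddx58 (RIG-I) fell by 2.97 and Ifit1 by 2.71. Usp18, which restrains interferon signalling, was at 8.46, 7.60 and 7.64 in KO 24 h arrays, against 9.79, 9.84 and 9.86 in KO 0 h arrays, a change of -1.93 (SE 0.15, adjusted p = 6.06e-11). Bst2 and Socs1 did not pass (changes 0.24 and -0.06). The fall was not particular to KO cells: in WT arrays 26 of these 32 genes fell, with a median change of -1.78. The KO response was higher than the WT response for 6 of them and lower for 1.

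In the Gimap GTPase and Schlafen families 10 of 14 fell (71.4%) and 2 rose (14.3%), against 16.5% and 17.6% over all genes. Slfn5 (-2.66) and Gimap6 (-1.14) were lower and Slfn3 (1.86) was higher at 24 h. Of 30 autophagy and lysosome genes 16 fell (53.3%) and 2 rose (6.67%), with Lipa at -1.39, Ctss at -1.24 and Gabarapl1 at 1.64. Of 14 BCL2 family genes 3 rose, 2 fell and 9 did not pass, shares of 21.4% risen and 14.3% fallen against 17.6% and 16.5% over all genes. Bcl2l1, which encodes the survival protein BCL-XL, rose by 1.93 (SE 0.12, adjusted p = 6.64e-13), and Bid, which links death receptors to mitochondria, by 0.95.

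Genes of helper lineages differed in direction from list to list. Of T helper 1 genes 21.4% rose and 35.7% fell, and of T helper 2 genes 27.3% and 36.4%. Shares were 0% and 28.6% for T helper 17, 38.5% and 23.1% for follicular helper and 69.6% and 8.7% for regulatory T cell genes. Over all genes 17.6% rose and 16.5% fell. Among 14 T helper 1 genes 3 rose and 5 fell, Tbx21, the lineage factor, rising by 0.58 (SE 0.17, adjusted p = 0.00819), or by 0.50 without passing when array 2 was the sole KO 0 h array. Of 11 T helper 2 genes 3 rose and 4 fell, and Gata3, their lineage factor, fell by 1.28 (SE 0.12), with 2 T helper 2 genes fallen when array 2 was the sole KO 0 h array. In the T helper 17 list 0 of 14 rose and 4 fell. Of 13 follicular helper genes 5 rose and 3 fell, with Bcl6, the lineage repressor, at -1.36. In the regulatory T cell list 16 of 23 rose and 2 fell, and the 6 with the largest rises (Il2ra, Socs2, Tnfrsf4, Tnfrsf9, Tigit and Tnfrsf18) include members of the activation list. Foxp3, their lineage factor, was at 8.78, 8.01 and 8.36 in KO 24 h arrays, against 7.87, 7.29 and 7.12 in KO 0 h arrays, a rise of 0.96 (SE 0.24, adjusted p = 0.0023), while Ikzf2 did not pass (change -0.28). Of the cytotoxic granule genes 4 of 15 rose (2 with array 2 as the sole KO 0 h array) and 2 fell, shares of 26.7% and 13.3% against 17.6% and 16.5% over all genes. Gzmb was at 4.74, 4.42 and 4.79 in KO 24 h arrays, against 2.39, 2.58 and 2.60 in KO 0 h arrays, a rise of 2.13 (SE 0.14, adjusted p = 2.85e-12), and reached 7.72 after 72 h, while Prf1 was at 4.83, 4.57 and 4.44 in KO 24 h arrays, against 8.35, 8.29 and 7.68 in KO 0 h arrays.

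Among 25 genes of TRIM28 and its partners in silencing, Trim28 itself included, 12 rose (48%), 5 fell (20%) and 8 did not pass. Over all genes 17.6% rose and 16.5% fell. Setdb1, the methyltransferase it recruits, was at 8.94, 8.93 and 8.97 in KO 24 h arrays, against 7.72, 7.70 and 7.63 in KO 0 h arrays, a rise of 1.26 (SE 0.07, adjusted p = 1.84e-14), and Cbx5, a heterochromatin protein, rose by 1.80 (SE 0.09, adjusted p = 1.66e-14). Atf7ip, the stabiliser of SETDB1, was at 9.39, 9.18 and 9.33 in KO 24 h arrays, against 10.77, 10.93 and 10.99 in KO 0 h arrays, a change of -1.60 (SE 0.08, adjusted p = 2.34e-15), and Trim24, a relative of TRIM28, fell by 1.11 (SE 0.08). The 336 genes whose symbol is Zfp with a number included 38 that rose (11.3%) and 90 that fell (26.8%), against 17.6% and 16.5% over all genes, with 23 risen when array 2 was the sole KO 0 h array. Of these, Zfp367 rose by 2.15 and Zfp945 and Zfp652 fell by 1.83 and 1.69. Of 26 imprinted genes 3 rose (11.5%), 2 fell (7.69%) and 21 did not pass (1 rose and 1 fell without KO 0 h array 2). Both shares were below those over all genes, and the 5 that passed changed by between -0.49 and 0.45.

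A list of 14 genes, chosen because they were known to be raised in these or other cells without TRIM28, is given as a description and supports no direction. In KO 24 h against KO 0 h arrays 6 rose (42.9%), 5 fell (35.7%) and 3 did not pass, against 17.6% risen and 16.5% fallen over all genes. Ccdc152 was at 6.68, 5.65 and 6.39 in KO 24 h arrays, against 2.21, 2.34 and 2.34 in KO 0 h arrays, a change of 3.95 (SE 0.18), and was back at 2.65 after 72 h. M1ap, a gene of meiosis, was at 5.67, 5.62 and 5.41 in KO 24 h arrays, against 2.78, 2.83 and 2.89 in KO 0 h arrays, a change of 2.73 (SE 0.13), and reached 7.51 after 72 h. Snai3, a Snail-type transcriptional repressor, was at 5.63, 5.34 and 5.68 in KO 24 h arrays, against 8.63, 8.74 and 8.70 in KO 0 h arrays, and Cacna1b, a neuronal calcium channel gene, at 5.30, 4.72 and 4.80 in KO 24 h arrays, against 7.41, 8.04 and 7.90 in KO 0 h arrays. Snai3, Cacna1b and Upk1b were therefore higher in unstimulated KO cells than at 24 h, whereas Ccdc152 and M1ap were lower there. Pgpep1l did not pass (change 0.17).

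Many markers of B cells and myeloid cells were lower at 24 h, and fewer of them with array 2 as the sole KO 0 h array. Of 17 B cell markers 10 fell and 1 rose, and their mean log2 level was 5.11, 4.54 and 4.76 in KO 24 h arrays, against 5.87, 5.09 and 5.73 in KO 0 h arrays 1 to 3. H2-Ab1, an MHC class II chain, was at 5.61, 4.76 and 5.27 in KO 24 h arrays, against 7.45, 6.33 and 7.27 in KO 0 h arrays, and Cd79a, part of the B cell receptor, at 5.96, 4.74 and 5.48 in KO 24 h arrays, against 7.20, 6.30 and 7.05 in KO 0 h arrays. In both groups array 2 was the lowest. Of 20 myeloid and neutrophil markers 12 fell and 0 rose, with means of 3.45, 3.29 and 3.39 in KO 24 h, against 4.23, 3.74 and 4.39 in KO 0 h arrays, and the neutrophil gene Ngp was at 5.31, 3.94 and 5.12 in KO 24 h arrays, against 8.28, 6.06 and 8.20 in KO 0 h arrays. With array 2 as the sole KO 0 h array 4 B cell and 3 myeloid markers fell, and the changes of H2-Ab1 (-1.12), Cd79a (-0.91) and Ngp (-1.27) did not pass. Of the 12 natural killer markers 3 fell, of the 6 CD8 markers 2 fell and 1 rose, and of the 7 erythroid and platelet markers 2 fell; with array 2 as the sole KO 0 h array 3, 1 and 1 fell in the same order. With all arrays, 25% of natural killer, 33.3% of CD8 and 28.6% of erythroid and platelet markers fell. Of the CD8 markers 16.7% rose, and over all genes 16.5% fell and 17.6% rose. No marker is at 0 on this scale, and what part these markers have in the changes of other genes was not tested.

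The response of KO cells was then set against that of WT cells, as the KO change minus the WT change. The difference passed for 1302 genes (5.87%), 367 with a higher (1.65%) and 935 with a lower (4.22%) value in KO, and 4195 genes (18.9%) had an unadjusted p below 0.05. Without KO 24 h array 1 it passed for 700 genes, and with array 2 as the sole KO 0 h array for 632. This balance rests on the scaling: with quantile normalization run again on the gene levels the difference passed for 976 genes, 594 higher and 382 lower, or 60.9% higher against 28.2%. Of the 3893 genes that rose in KO, 640 had a lower and 47 a higher KO than WT response, and of the 3653 that fell, 114 had a lower and 257 a higher one. These counts share the KO arrays with the KO response and describe its size only. Of 7546 genes past the threshold in KO and 8810 in WT (39.7%), 26 passed in opposite directions (0.117%).

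Genes whose rise was smaller in KO include Il2, with a KO change of 4.84 and a WT change of 7.0, a difference of -2.16 (SE 0.25, adjusted p = 8.59e-06). Il1a, an inflammatory cytokine, did not pass in KO (0.11) and changed by 3.20 in WT, a difference of -3.09 (SE 0.17, adjusted p = 1.14e-11). Eea1, a tether of early endosomes, had changes of 2.07 in KO and 4.24 in WT, a difference of -2.18 (SE 0.15, adjusted p = 8.86e-10). The differences were -1.61 (SE 0.17, adjusted p = 2.89e-06) for Cd200, -2.0 (SE 0.30, adjusted p = 0.000254) for the growth factor gene Pdgfb and -0.98 (SE 0.19, adjusted p = 0.00269) for Pdcd1. Ribosome biogenesis genes had a lower KO response in 16 of 40 cases and a higher one in 0 (5 and 0 with quantile normalization run again), proteasome genes in 10 and 0 of 30 (4 and 0) and DNA replication genes in 8 and 0 of 39 (3 and 0).

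Genes whose fall was smaller in KO include those of quiescence, 15 of 31 with a higher and 0 with a lower KO response, under quantile normalization run again also 15 and 0. S1pr1 changed by -2.47 in KO and -4.27 in WT, a difference of 1.80 (SE 0.24, adjusted p = 3.94e-05). Klf2 changed by -2.5 in KO and -3.95 in WT, a difference of 1.45 (SE 0.26, adjusted p = 0.00124). Usp18 changed by -1.93 in KO and -3.91 in WT, a difference of 1.98 (SE 0.22, adjusted p = 3.24e-06). The Ifi200 family genes, which have similar sequences that probes may not tell apart, had 4 of the 10 highest differences, 2.35 (Ifi214), 2.16 (Ifi208), 2.15 (Ifi213) and 1.93 (Ifi209). Otud1, a deubiquitinase gene, rose in KO (0.67) and fell in WT (-1.35), a difference of 2.02 (SE 0.15, adjusted p = 3.26e-09), and Cdc25b, a phosphatase of mitotic entry, likewise (1.11 and -0.64).

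Other genes changed little in WT and by much in KO. The difference was -3.81 (SE 0.62, adjusted p = 0.000499) for Upk1b, -3.13 (SE 0.25, adjusted p = 1.64e-08) for Snai3, -2.67 (SE 0.24, adjusted p = 1.13e-07) for Cacna1b, 3.42 (SE 0.25, adjusted p = 2.98e-09) for Ccdc152 and 2.56 (SE 0.18, adjusted p = 2.36e-09) for M1ap, while their WT changes lay between -0.18 and 0.53. Acadm changed by 1.01 in KO and 0.04 in WT, a difference of 0.97 (SE 0.10, adjusted p = 1.77e-06). By contrast, Setdb1 changed in the same direction in both, by 1.26 in KO and 0.66 in WT, a difference of 0.60 (SE 0.09, adjusted p = 0.000332). Many of the strongest changes in KO did not differ past the threshold from those in WT, among them Irf4 (adjusted p = 0.144), Il2ra (0.253), Aurkb (0.81), Kif11 (0.551), Fos (0.857) and Myc (0.74), and a p above the threshold does not show that the responses were alike.

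**Figure D5:**
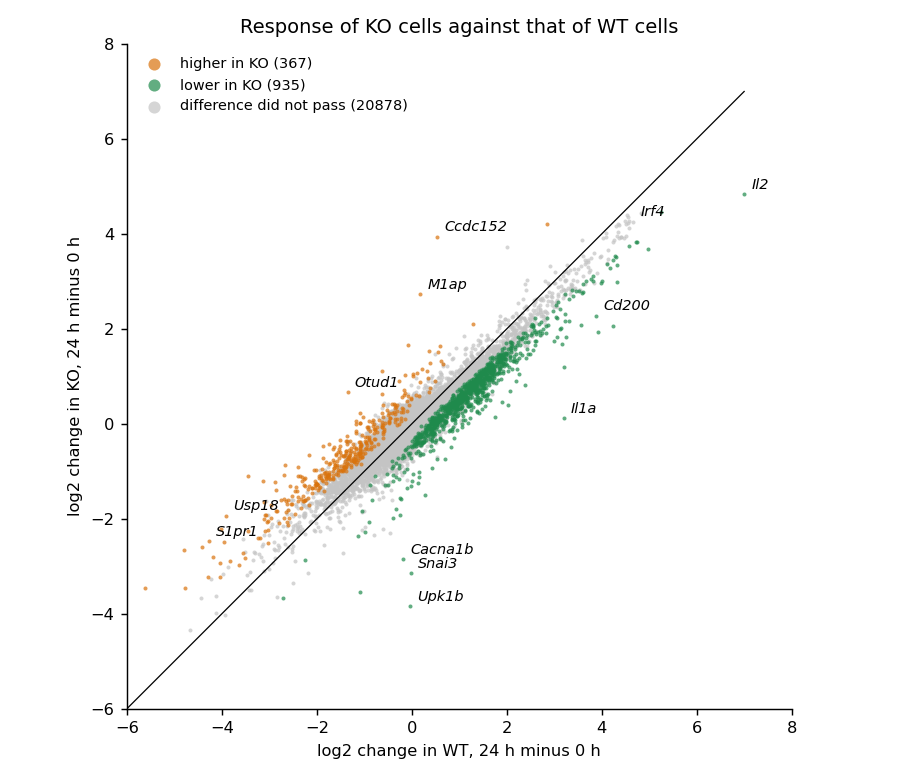
Change of each gene in KO cells (vertical axis, log2 level at 24 h minus 0 h) against its change in WT cells (horizontal axis, same unit), with the line of equal change. The 1302 coloured genes have a difference past the threshold, 367 above the line in orange and 935 below it in green; Ccdc152 and M1ap lie far above it and Upk1b, Snai3, Il1a and Il2 below.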

How the data were processed

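RNA of 24 samples was hybridised to Affymetrix arrays, 3 in each of 8 groups by genotype and time. The authors' deposited values are log2 intensities of 41345 probe sets, and the submitters' processing notes name RMA, oligo and R 3.1.0 as the tools. RMA makes the arrays' distributions alike, so a change is relative to the rest of the array and a shift of total RNA per cell is not seen. Of 41345 probe sets, 23521 carry 1 gene symbol, 1814 carry several and 16010 carry none in the platform annotation used. Where a gene had several sets (1082 genes), that with the highest mean level was used, leaving 22180 genes. All 24 arrays entered 1 limma fit (version 3.58.1, R 4.3.3) of 8 group means with eBayes and a mean-variance trend, with 16 residual degrees of freedom. Contrasts were KO 24 h minus KO 0 h and that change minus the WT change, with Benjamini-Hochberg adjustment over all genes at 0.05. The fit was tested on simulated data. The members and lists were chosen with earlier results of these data known, so list counts are descriptions. Named genes are Trim28, the 15 highest and 15 lowest changes without overlap between groups, up to 6 passing and up to 3 not passing genes per list, the 10 highest and 10 lowest KO minus WT differences, genes of opposite direction, and markers. Array numbers were checked for pairing: the deviations of same-numbered KO arrays from their group means correlated at 0.167, 0.122 and 0.177, so the numbers are taken to pair KO arrays from the data, not from the labels. Same-numbered WT arrays correlated at 0.057, 0.102 and 0.174. Promoter sequences are RefSeq's of build GRCm38.p6. Precision is limited by how many arrays there are, since arrays have no read depth.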

Additional observations from a re-analysis of the deposited data

Results flagged for a closer look

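For 59 genes named above the response to 24 h of stimulation differed between KO and WT cells by the test of the difference itself (limma, adjusted p below 0.05), 28 with a higher and 31 with a lower value in KO. Each value here is the KO change minus the WT change on the log2 scale. Of the 59, 31 kept direction and call in every alternative run, 19 lost the call in at least 1 fit that left out an array, and 11 lost it with quantile normalization run again. All 11 were genes with a lower value in KO, so it is the lower side that depends on the scaling.

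Higher values in KO, each kept in every alternative run, were found for Ccdc152 (3.42), M1ap (2.56), Ifi214 (2.35), Ifi213 (2.15), Otud1 (2.02), Usp18 (1.98), Ifi209 (1.93), S1pr1 (1.80), Cdc25b (1.75), Mxd4 (1.5), Klf2 (1.45), Acadm (0.97), Itga4 (0.85), Gimap6 (0.82), Prkcq (0.73), Setdb1 (0.60) and Dgka (0.52). Among these, S1pr1, Klf2 and Itga4 act in T cell circulation. Lower values kept in every alternative run were found for Upk1b (-3.81), Snai3 (-3.13), Il1a (-3.09), Cacna1b (-2.67), Eea1 (-2.18), Il2 (-2.16), Pdgfb (-2.0), Cd200 (-1.61), Pdcd1 (-0.98), Trim24 (-0.79), Bcl2l1 (-0.73), Nfkb2 (-0.67), Rel (-0.61) and Fh1 (-0.58). Nfkb2 and Rel encode NF-kappa-B subunits, and Cd200 and Pdcd1 inhibitory molecules.

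The other 28 differences passed as reported and lost the call under at least 1 alternative. Those higher in KO were Ifi208 (2.16), Xcl1 (1.37), Rtp4 (1.33), Oas2 (1.07), Pik3ip1 (0.82), Ddx60 (0.81), Txnip (0.80), Ddx58 (0.67), Mxd1 (0.49), Btg2 (0.46) and Cd3e (0.31). Those lower in KO were Trim28 (-0.95), Cyp2s1 (-0.95), Ccl3 (-0.91), Slc43a3 (-0.83), Mcm10 (-0.79), Eif4ebp1 (-0.77), Mki67 (-0.73), Lag3 (-0.72), Tnfrsf4 (-0.66), Bid (-0.64), Zfp367 (-0.57), Eef1e1 (-0.43), Slc2a1 (-0.40), Mybbp1a (-0.36), Cycs (-0.31), Cct6a (-0.27) and Eif3b (-0.26).

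Outside the gene comparison, 2691 of 16010 probe sets with no gene listed (16.8%) passed between KO 24 h and KO 0 h, 792 higher and 1899 lower. Of 1814 probe sets that list several genes, 526 passed (29%), 277 higher and 249 lower.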

How the results depend on the processing

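The counts of changed genes in KO cells stayed within 1.5 times of 7546, and of 1938 for at least 2-fold, under each alternative run: between 6773 and 7159, and between 1874 and 2112, when an array was left out, and at 5948 and 1962 with array 2 as the sole KO 0 h array. Genes that passed in KO against WT numbered between 700 and 1329 when an array was left out, the lowest without KO 24 h array 1. They numbered 779 with arrays 1 and 2 alone and 632 with array 2 as the sole KO 0 h array. These fits hold fewer arrays, and where a group was left with 1 array, its spread was assumed to be like that of the other groups. Of 160 named genes that passed in KO, 154 kept direction and call under every alternative run, and 0 of 182 reversed. The exceptions were Trim28 (without KO 0 h array 2) and H2-Ab1, Cd79a, Ngp, Ccl5 and Tbx21 (array 2 as the sole KO 0 h array).

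Some small list counts turned on 1 array. Without KO 0 h array 3, 3 cytokine genes fell. Without KO 0 h array 1, 5 natural killer markers fell. Of regulatory T cell genes 2 are reported as fallen, but 1 fell when KO 24 h array 1 or 2 was left out. The same count of 1 was found without KO 0 h array 1 or 3. Of interferon-stimulated genes 1 is reported as risen, and 0 rose without KO 24 h array 1 or without KO 0 h array 1. Without KO 24 h array 3, 25 Zfp genes rose, and without KO 24 h array 2 or KO 0 h array 2, 2 cytotoxic granule genes rose. With the replicate block, the numbers as pairs, 7566 genes passed in KO, 1939 at least 2-fold and 1359 against WT. The block within each genotype, added after seeing the data, gave 7556, 1939 and 1348, and neither block moved these 3 counts by over 1.5 times. With either block 2 B cell markers rose, where 1 is reported, and with the replicate block 0 cytosolic ribosomal protein genes fell, where 1 is reported. Of the nucleotide, serine and one-carbon genes 1 is reported as fallen, but 0 fell when KO 24 h array 1, 2 or 3 or KO 0 h array 1 or 3 was left out, and 2 fell with quantile normalization run again. On arrays, the signal over background limits the change that a dim gene can show.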
